A study of Homo sapiens with 3 samples.

Results

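The 43 genes described here encode the machinery of autophagy and of the lysosome, and all of them were found in the platform annotation by their gene symbols. Together they carried 108 of the 41097 probe sets that the annotation gives to a single gene, in a table of 54675 probe sets and 19775 genes. The RNA came from NCI-H1650 cells, a human lung adenocarcinoma cell line. The control array carried RNA from cells for which the labels give no treatment, no collection time and no vehicle. The other arrays carried RNA from cells given 40 μM colossolactone H, a triterpenoid of the fungus Ganoderma colossum, for 12 h or for 24 h, in dishes seeded with 1000000 cells. There was 1 array in each of the 3 groups, so no difference below has a replicate error or a test, and the number of arrays limits the precision of every value.

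Macroautophagy encloses cytoplasm in a double membrane, the autophagosome, which then fuses with the lysosome. A kinase complex around ULK1 starts the process, a lipid kinase complex around BECN1 marks the membrane, and conjugating enzymes attach ubiquitin-like proteins of the ATG8 family (LC3 and GABARAP) to it. Receptors such as SQSTM1 bind both ubiquitinated cargo and ATG8 proteins and are themselves degraded with the cargo. The lysosome digests what arrives with acid hydrolases, at a pH kept low by a proton pump, and TFEB and TFE3 are transcription factors known to act on many of these genes.

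Signals are MAS5 intensity units on a linear scale. A gene took its brightest single-gene probe set by mean signal, signals under 61.4 (the 50th percentile of all values) were raised to that floor, and differences are log2 of one array over another. All 43 members were above the floor on all arrays, with signals from 169.6 to 17502.6, among 12351 genes that passed the floor on at least 1 array. Among all those genes the median difference was 0.00 at 12 h and 0.00 at 24 h, with robust SDs (scaled median absolute deviations) of 0.255 and 0.295. The 3' over 5' signal ratio of the ACTB control probe sets, a sign of RNA integrity, was 4.95, 5.38 and 6.55 on the control, 12 h and 24 h arrays, and that of GAPDH was 1.21, 1.25 and 1.24. The part of the ACTB ratio in the differences below was not tested. Of 10 markers of epithelium and lung adenocarcinoma 9 were measured, with EPCAM at 13032.6 signal units in the control. The summed signal of the 10 was 72868.5, 69736.9 and 70512.3 on the control, 12 h and 24 h arrays. Against the control 2 of the 9 were higher and 6 lower at 12 h, and 4 higher and 5 lower at 24 h. KRT19 was at -0.54 and -0.60, and SFTPC at 0.93 and 0.64. The lung lineage factor NKX2-1 was below the floor on every array, and other lung markers were dim. SFTPB was at 235.6 and SFTPC at 84.3 signal units in the control, and NAPSA passed the floor only on the 24 h array. Of 5 macrophage and leukocyte markers, cells rich in lysosomes, 2 were measured. PTPRC and CD14 were below the floor on every array, and the summed signal of the 4 markers with a single-gene probe set was 346.7, 295.4 and 313.4 on the control, 12 h and 24 h arrays. That of 5 fibroblast and endothelial markers was 1785.9, 1477 and 1189.6. In RNA of whole cultures, a change in the share of cells expressing a gene cannot be told apart from a change per cell.

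Colossolactone H arrays showed a small tilt of the 43 listed genes towards higher signal, made of many small differences. The list was drawn up with earlier results of these data known, so the tilt depends on which genes were listed. In 102 further measured genes of the same processes the medians were 0.06 at 12 h and 0.03 at 24 h. At 24 h SQSTM1, the cargo receptor p62, was 1.82-fold higher than in the control, ULK1, the starter kinase, 1.60-fold and CTSL, the protease cathepsin L, 1.59-fold. GABARAPL1 and MAP1LC3B, which coat autophagosomes, were 1.45-fold and 1.41-fold higher in their brightest probe sets. Another MAP1LC3B probe set, of like signal, was 1.18-fold higher. LAMP2, a membrane protein of the lysosome, was at 0.874 of its control signal. Of the 43 members 7 differed by less than 0.1 at both times.

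At 12 h 34 of 43 members were higher and 9 lower, with a median of 0.16, where 50.2% of all measured genes were higher and 48.4% lower. At 24 h 34 of 43 were again higher and 9 lower, with a median of 0.16, against 48.8% and 49.9% of measured genes. At least 1.5-fold higher were 1 member at 12 h, ULK1, where 3.41% of measured genes passed that fold, and 3 members at 24 h, where 4.09% did. Both counts are near what those shares give for 43 genes. No member was 1.5-fold or more lower at 12 h or at 24 h, where 3.1% and 4.91% of measured genes were, and none reached 2-fold in its brightest probe set. Since most members are bright genes, the share of higher genes was also read by signal. Among the 3088 measured genes with a mean signal above 2236.9, 53.7% were higher at 12 h and 53.1% at 24 h, and 20 and 22 of the 27 members in that range were. Both treated arrays are set against the same control array, so the 12 h and 24 h counts are not independent.

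**Figure D1:**
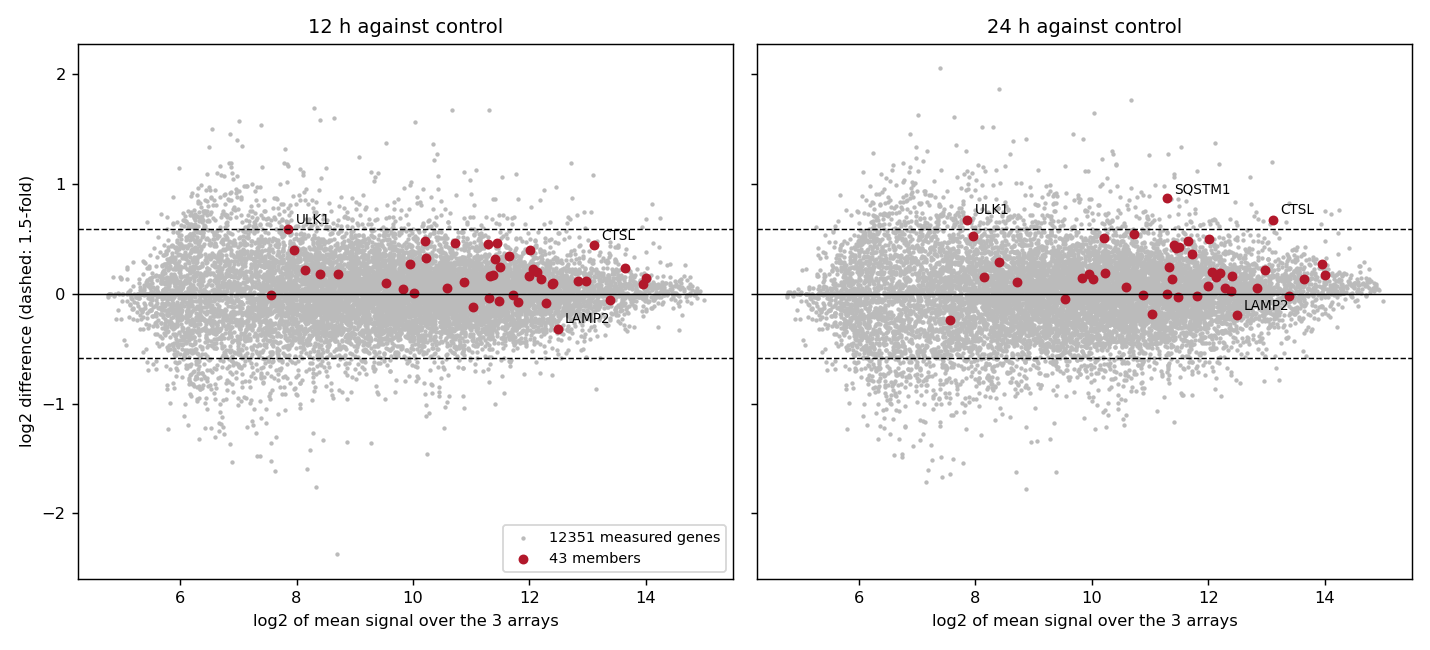
Each grey point is 1 of 12351 measured genes and each red point 1 of the 43 members, with log2 of mean signal over the 3 arrays on the x axis and the log2 difference from the control array on the y axis, at 12 h (left) and 24 h (right). Dashed lines mark 1.5-fold. Members lie mostly just above 0, with ULK1 past the line at 12 h and SQSTM1, ULK1 and CTSL past it at 24 h.

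By role and in their brightest probe sets, the receptors were higher in 5 of 5 cases at each time, and their median was 0.22 at 12 h and 0.20 at 24 h. One of the 5, OPTN, had a second probe set of like signal that was lower at both times. The 8 hydrolases, with the activator PSAP among them, had medians of 0.19 and 0.22 in that order of time, and 7 of 8 were higher at each time. The 18 autophagosome genes had medians of 0.11 and 0.12 with 13 and 12 higher. The 7 proton pump subunits had medians of 0.12 and 0.07, and they spanned the narrow range of -0.08 to 0.17 at 12 h and -0.02 to 0.25 at 24 h. The ranges of these classes overlap, and with 1 array a group their order has no test.

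**Figure D2:**
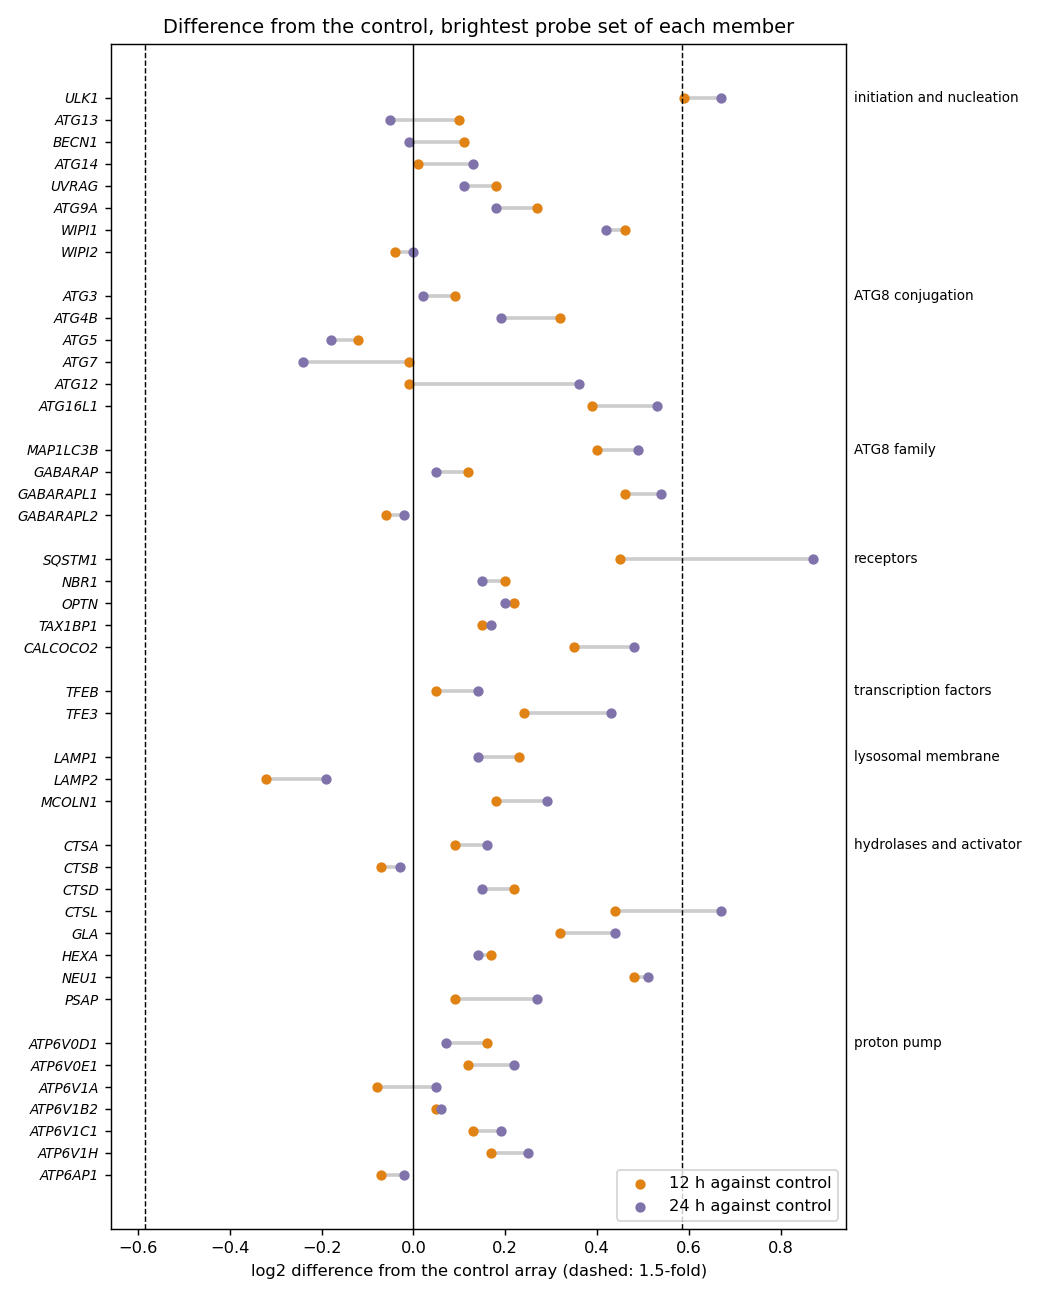
Log2 difference from the control array (x axis, brightest probe set) for each of the 43 members (y axis, grouped by role), at 12 h (orange) and 24 h (purple), with dashed lines at 1.5-fold. Points right of 0 are higher than the control, and the widest gap between the times among genes past 1.5-fold is that of SQSTM1, at 0.45 and 0.87.

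Among genes that start the autophagosome, ULK1 had signals of 169.8 on the control array, 254.9 at 12 h and 271.1 at 24 h, the order in which signals are given for every gene below. Both treated arrays were above the control, by 0.59 and 0.67. The gene had 1 probe set, and with a floor at the 65th percentile the differences were 0.41 and 0.49, so that neither time reached 1.5-fold. WIPI1, which binds the lipid made by the BECN1 complex, had signals of 2263.7, 3114.8 and 3026.9, with both treated arrays above the control and close to each other. Its second probe set, at 1618.7, 2472.3 and 2478 signal units, showed the same step, with differences of 0.61 at each time. Its relative WIPI2 differed by -0.04 at 12 h in its brightest probe set, while the next probe set went from 2091.4 to 2220.5 and 3136.4, so the probe sets of this gene disagreed at 24 h.

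The other starting genes stayed nearer the control. ATG9A, the membrane protein of the vesicles that seed the autophagosome, was at 0.27 and 0.18, and UVRAG, a partner of BECN1, at 0.18 and 0.11. ATG13, a subunit of the ULK1 complex, was at 0.10 and -0.05, ATG14, which directs BECN1 to autophagy, at 0.01 and 0.13, and BECN1 at 0.11 and -0.01. The second probe set of BECN1 read 0.02 and 0.39.

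The conjugation enzymes went both ways. ATG16L1, which places the conjugation complex on the membrane, had signals of 199, 261.6 and 286.6, with differences of 0.39 and 0.53, although its other measured probe set read -0.18 and 0.17. ATG4B, the protease that primes ATG8 proteins, had signals of 1054.7, 1319 and 1201.7, highest at 12 h. Of its 3 probe sets 2 were higher at both times, and the dimmest was lower, at -0.40 and -0.49. ATG12, the ubiquitin-like partner of ATG5, was at the control level at 12 h and 0.36 above it at 24 h in its brightest probe set, but its other probe sets were at -0.12 and -0.07 at 24 h. ATG5 itself, the acceptor of ATG12, was lower in all 3 probe sets at both times, from -0.44 to -0.07 at 12 h and from -0.63 to -0.02 at 24 h. ATG7, the activating enzyme of both conjugation systems, was at -0.01 and -0.24 in its brightest probe set. The next, of nearly the same signal, read -0.13 and -0.06, and a dim one, below the floor on the control and 12 h arrays, read 0.55 at 24 h. ATG3, which loads ATG8 proteins onto lipid, was at 0.09 and 0.02 in its brightest probe set. Its other one, at 203.3 signal units in the control, read -0.55 and -0.10.

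The 4 genes of the ATG8 family, the proteins that coat the autophagosome, divided into pairs by their brightest probe sets. GABARAPL1 had signals of 1321.2, 1822.4 and 1921.7, and its second probe set had 476.8, 738 and 967.8. Both treated arrays exceeded the control in both probe sets, by 0.46 and 0.54 in the brighter one and by 0.63 and 1.02 in the dimmer one, which at 24 h was 2.03-fold. A further probe set that the annotation gives to GABARAPL1 and GABARAPL3 together, and which entered no gene value, read 2781.7, 3428.5 and 4216.9. MAP1LC3B, the LC3 most used to follow autophagy, had signals of 3340.4, 4394.9 and 4705.3. Its second probe set, of nearly the same control signal (3179.1), differed by only 0.09 and 0.23. By that probe set MAP1LC3B was not above GABARAP at 12 h. GABARAP and GABARAPL2, with 1 probe set each, were at 0.12 and 0.05 and at -0.06 and -0.02.

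SQSTM1 was the member with the largest difference at 24 h in its brightest probe set. Its signals were 1794.7, 2459.7 and 3273.5, an ascending order with differences of 0.45 and 0.87. At 24 h 1.08% of all measured genes were at least as far above the control. Of its 4 measured probe sets 3 gave 0.86 to 0.92 at 24 h, and these were also higher at 12 h, at 0.45 to 0.78. The remaining probe set, at 160.9 signal units in the control, was at -0.03 and -0.10.

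CALCOCO2, the receptor NDP52 for bacteria and damaged mitochondria, followed at 2636.7, 3349.8 and 3679.8 signal units. Its differences were 0.35 and 0.48, and 3 of its 4 measured probe sets were higher at 12 h and all 4 at 24 h. NBR1, a receptor related to SQSTM1, was at 0.20 and 0.15 in its brightest probe set. Its next probe set read -0.13 and 0.08, and the dimmer ones 0.79 and 0.78, and 0.00 and 0.49, so 2 of 4 were higher at 12 h and all 4 at 24 h. TAX1BP1, which recruits the ULK1 complex to cargo, was at 0.15 and 0.17 with all 3 probe sets higher. OPTN, the receptor optineurin, was at 0.22 and 0.20 in its brightest probe set and at -0.22 and -0.28 in the other, whose signal was nearly the same in the control (3860.6 and 3547.7), so no direction can be given for it.

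The transcription factors TFEB and TFE3 were above the control at both times in their brightest probe sets. TFE3 had signals of 2465.1, 2909.3 and 3313.3, in ascending order, with differences of 0.24 and 0.43, and its second measured probe set read 0.54 and 0.50. TFEB had signals of 873.5, 901.8 and 963.1, a difference of 0.05 at 12 h and 0.14 at 24 h. Its second probe set read -0.02 and 0.14. These are mRNA levels, and both factors are known to be controlled mainly by where the protein sits in the cell, which an array does not show.

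In the lysosomal membrane LAMP2, a highly glycosylated protein also needed for fusion, stood lowest of the 43 at 12 h. Its signals were 6446.3, 5170.4 and 5633.7, with differences of -0.32 and -0.19. All 4 of its probe sets were lower at both times, from -0.32 to -0.10 at 12 h and from -0.29 to -0.04 at 24 h. LAMP1, its closest relative, was at 0.23 and 0.14 in its brightest probe set and at -0.08 and 0.03 in the next, both small. A dimmer LAMP1 probe set went from 216.2 to 263.7 and 399.4 signal units, a difference of 0.89 at 24 h that the other 3 did not show. MCOLN1, the calcium channel of the lysosome, had signals of 301.8, 342.1 and 369.4, with differences of 0.18 and 0.29.

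Among the hydrolases CTSL had signals of 6696.5, 9098.6 and 10680.1, in ascending order, with differences of 0.44 and 0.67. NEU1, a sialidase, had signals of 930.7, 1297.4 and 1321.6, with both treated arrays above the control by 0.48 and 0.51. GLA, the galactosidase lacking in Fabry disease, was at 0.32 and 0.44. Each of these 3 genes had 1 probe set, so no second reading was possible. CTSB, the protease cathepsin B, stood apart from CTSL at -0.07 and -0.03, and 4 of its 5 probe sets were lower at 12 h and 4 at 24 h, the lowest at -0.36 and -0.61. CTSA, which protects NEU1 in a complex, was at 0.09 and 0.16, the aspartic protease CTSD at 0.22 and 0.15 and HEXA, a hexosaminidase, at 0.17 and 0.14. The dimmer probe sets of HEXA were lower at 12 h, at -0.35 and -0.39. PSAP, whose product is cut into saposins that present lipids to hydrolases, had signals of 14536, 15441.1 and 17502.6, and its second probe set read 0.25 and 0.60.

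The proton pump has a membrane sector (V0) and a cytosolic sector (V1) that splits ATP. ATP6V1H, a regulatory V1 subunit, had signals of 2336.5, 2620 and 2770.5, a difference of 0.17 at 12 h and 0.25 at 24 h. ATP6V0E1, a small V0 subunit, had 7409.4, 8041.6 and 8631.2, and all 7 of its measured probe sets were higher at both times, with its 3 brightest between 0.09 and 0.12 at 12 h and between 0.18 and 0.22 at 24 h. The V1 stalk subunit ATP6V1C1 was at 0.13 and 0.19 with a second probe set close to it, yet another went from 1786.3 to 1187.8 and 1159.8 signal units, the lowest 12 h difference of any member probe set at -0.59. ATP6V0D1, which links V0 to V1, was at 0.16 and 0.07, the catalytic subunit ATP6V1A at -0.08 and 0.05 (0.43 and 0.49 in its dimmer probe set), ATP6V1B2 of the same ATP-splitting ring at 0.05 and 0.06, and the accessory protein ATP6AP1 at -0.07 and -0.02.

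**Figure D3:**
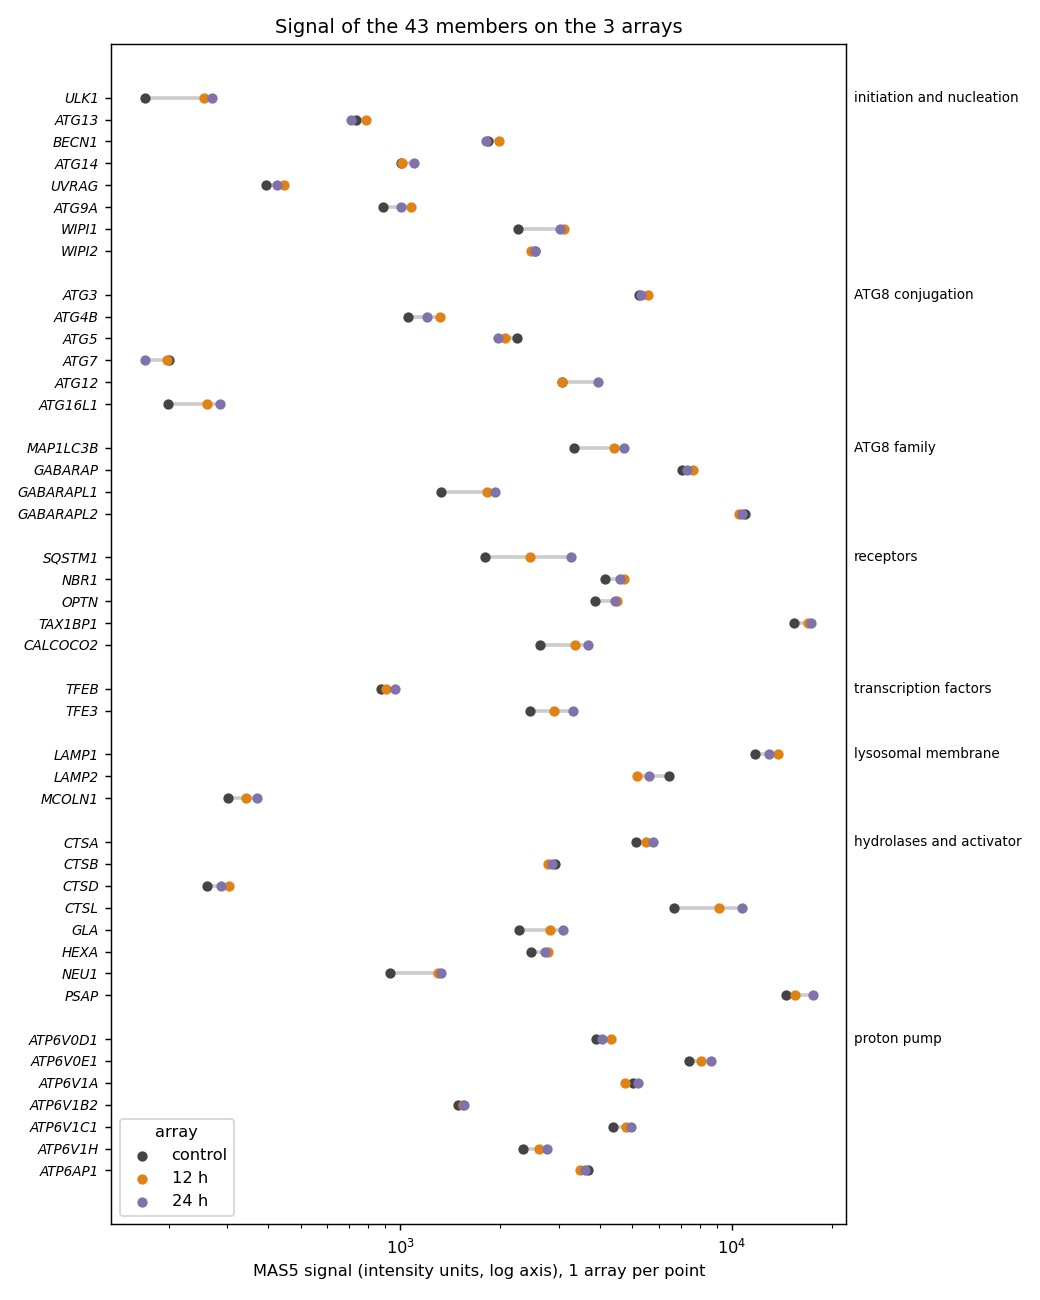
MAS5 signal (x axis, log scale) of the brightest probe set of each member (y axis, grouped by role) on the control (grey), 12 h (orange) and 24 h (purple) arrays, 1 array per point. Distances within a gene can be read, such as those of CTSL from 6696.5 to 10680.1, but signals of different probe sets are not comparable levels.

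From the first to the second exposure time little moved. Of 43 members 27 were higher at 24 h than at 12 h, and 16 lower, with a median of 0.04, where 46.3% and 51.7% of measured genes were. None was 1.5-fold or more higher or lower between these arrays, where 1.46% and 1.91% of measured genes were. In the brightest probe sets the largest steps were SQSTM1 at 0.41 and ATG12 at 0.37 upward and ATG7 at -0.22 downward. Another ATG12 probe set stepped by -0.33, and the other measured ATG7 probe sets by 0.06 and 0.55, so these steps of ATG12 and ATG7 were not shared by all their probe sets. In 20 members the signals stood in the order control, 12 h, 24 h from low to high, as in 21.1% of measured genes. In ATG5 and ATG7 they stood in the reverse order, as in 22.9%. In their brightest probe sets 32 members were above the control at both times, as were 37.5% of measured genes. Below it at both times were 7 (ATG5, ATG7, ATP6AP1, CTSB, GABARAPL2, LAMP2 and WIPI2), against 38.5% of measured genes.

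Probe sets of the same gene show how far readings of a gene on the same arrays disagree. They do not measure the error between cultures or arrays, which has no estimate with 1 array a group. Of the 108 member probe sets 101 passed the floor. Of these, 66 were higher at 12 h, where 48.9% of all measured single-gene probe sets were, and 71 at 24 h, where 49.2% were. At least 1.5-fold higher were 8 and 11 of them, against 3.58% and 5.68% of all, and at least 1.5-fold lower were 1 and 3, against 3.68% and 5.44%. Probe sets of a gene are not separate cases, and several of those higher at 24 h were of SQSTM1. Counted by gene, 1 and 3 of the 43 members were at least 1.5-fold higher. For the 28 members with 2 or more measured probe sets, the 2 brightest differed from each other by a median of 0.19 at 12 h and 0.15 at 24 h, which is as large as the median difference of the members from the control. All probe sets went one way in 11 of the 28 at 12 h and in 16 at 24 h, against 46.5% and 45.7% of 6324 such genes. The other 15 members, ULK1, CTSL and NEU1 among them, had 1 measured probe set.

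**Figure D4:**
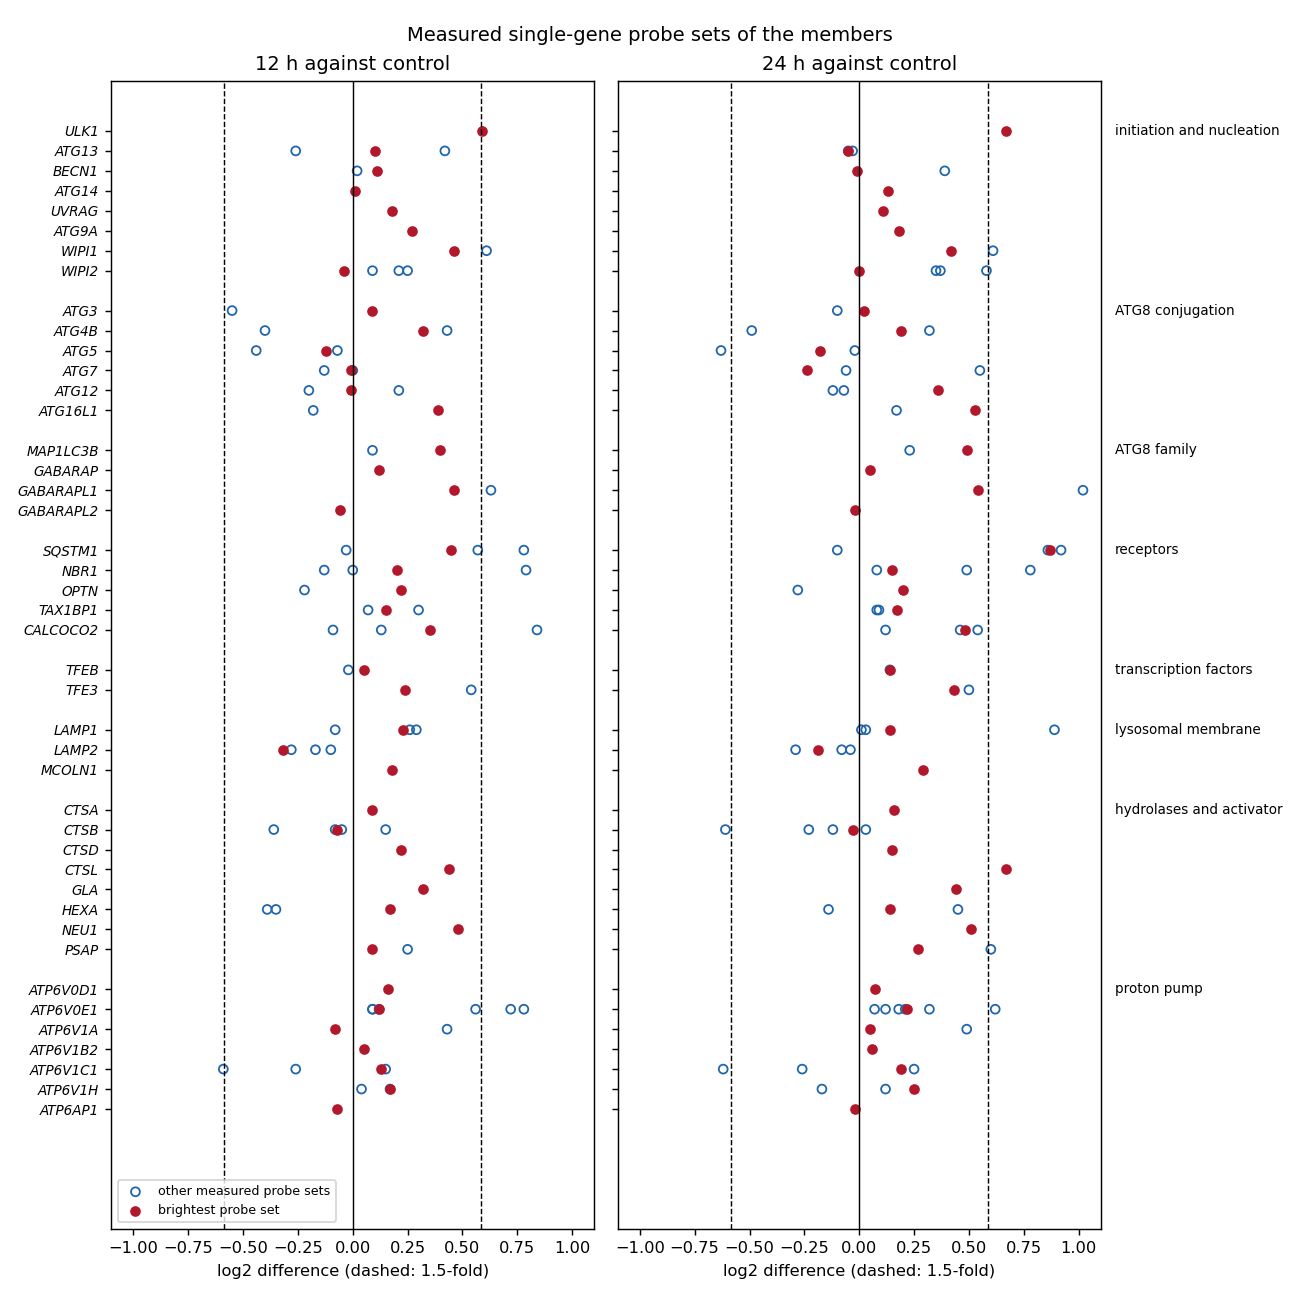
Log2 difference from the control (x axis) of every measured single-gene probe set of the members (y axis, grouped by role) at 12 h (left) and 24 h (right), with the brightest probe set of a gene in red and the others as open blue circles. Dashed lines mark 1.5-fold. The readings of SQSTM1 gather near 0.9 at 24 h apart from one, while those of OPTN, ATG4B and ATP6V1C1 fall on both sides of 0.

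TFEB and TFE3 bind an element whose core reads CACGTG, so the promoter windows of the members were searched for it (RefSeq, GRCh38.p14, 250 bases before to 50 after a gene's start, both strands). Windows were found for 33 of the 43 genes, 42 windows in all. CACGTG was in the windows of 8 members, ATG14, ATG3, LAMP1, MCOLN1, CTSA, CTSD, NEU1 and ATP6V0D1, or 24.2% of those genes against 8.77% of 27305 genes. By window these shares were 19% and 7.26%. The longer form GTCACGTG, which overlaps the first, was in 7 of them against 2.93% of genes. Both factors are known to act on many of the members, so a high share among them was likely in advance. The 27305 genes were all those with a window, measured here or not. The stretches below show the element in capitals with its surroundings, each printed 5′ to 3′ and ending before the start. They lie at chr20:45891276-45891315, plus strand (CTSA), chr11:1763952-1763991, minus strand (CTSD), chr6:31862925-31862964, minus strand (NEU1), chr16:67481194-67481233, minus strand (ATP6V0D1), chr14:55411831-55411868, minus strand (ATG14) and chr3:112561963-112561997, minus strand (ATG3).
CTSA: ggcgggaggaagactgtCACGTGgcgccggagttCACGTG
CTSD: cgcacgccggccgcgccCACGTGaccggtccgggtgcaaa
NEU1: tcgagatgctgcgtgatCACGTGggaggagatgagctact
ATP6V0D1: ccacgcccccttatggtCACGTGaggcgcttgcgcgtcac
ATG14: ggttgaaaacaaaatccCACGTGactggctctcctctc
ATG3: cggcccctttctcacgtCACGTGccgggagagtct

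The window of LAMP1 held CACGTG 6 times and that of MCOLN1 2 times. They are shown as the 200 bases before the start, at chr13:113297039-113297238, plus strand (LAMP1, where 5 of the 6 copies lie wholly within the stretch) and chr19:7522424-7522623, plus strand (MCOLN1).
LAMP1: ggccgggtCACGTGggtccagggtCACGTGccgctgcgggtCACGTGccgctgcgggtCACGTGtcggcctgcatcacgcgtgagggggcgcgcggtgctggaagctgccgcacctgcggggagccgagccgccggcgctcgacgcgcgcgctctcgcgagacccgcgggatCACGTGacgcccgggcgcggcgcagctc
MCOLN1: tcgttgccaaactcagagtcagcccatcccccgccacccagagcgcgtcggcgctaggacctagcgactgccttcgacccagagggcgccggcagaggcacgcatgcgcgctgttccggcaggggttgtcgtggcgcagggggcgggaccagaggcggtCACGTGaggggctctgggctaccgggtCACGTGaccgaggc

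Members with and without these letters differed from the control by like amounts. The 8 genes with CACGTG had median differences of 0.17 at 12 h and 0.15 at 24 h, and the 25 without it had 0.22 and 0.19. At 24 h all 8 were above the control, as were 18 of the 25. With its 6 copies LAMP1 was at 0.23 and 0.14, and NEU1, with 1 copy, was the holder with the largest difference. NEU1 was second only to ULK1 among all members at 12 h. The windows of SQSTM1, ULK1 and CTSL, the 3 members past 1.5-fold, did not hold CACGTG. For comparison, the 200 bases before the start are printed for CTSL (chr9:87725919-87726118, plus strand). They are also printed for the most downstream of the 3 listed starts of SQSTM1 (chr5:179820705-179820904, plus strand). Capitals mark TGANNNNGC on either strand, a looser form of the core of the antioxidant response element. Of the 3 SQSTM1 windows only the printed one held it, and no match was found for ULK1.
CTSL: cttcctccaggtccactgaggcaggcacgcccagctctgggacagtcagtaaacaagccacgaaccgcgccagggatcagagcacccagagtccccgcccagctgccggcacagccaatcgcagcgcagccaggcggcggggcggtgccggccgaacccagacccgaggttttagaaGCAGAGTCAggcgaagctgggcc
SQSTM1: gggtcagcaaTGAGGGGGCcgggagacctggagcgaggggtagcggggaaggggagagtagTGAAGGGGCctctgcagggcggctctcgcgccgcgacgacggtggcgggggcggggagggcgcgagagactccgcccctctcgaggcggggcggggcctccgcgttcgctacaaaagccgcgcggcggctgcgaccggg
That pattern is short and common. It was in windows of 19 of the 33 members, or 57.6%, and of 47.1% of all genes, and the 19 had a median of 0.16 at 24 h against 0.18 for the other 14. TGATGNAA, the element that ATF4 shares with C/EBP factors, was in none of the 42 member windows, against 3.62% of all windows and 4.46% of genes. At shares that low few matches would arise in 42 windows. A match of letters is a description of the window and does not show binding.

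Genes of the same processes outside the 43 were less tilted. Over 6 lists 117 further genes were taken, of which 102 were measured. Of these 59 were higher at 12 h and 55 at 24 h, with medians of 0.06 and 0.03. In the 25 other lysosomal hydrolases and activators, 11 were higher at 12 h and 7 at 24 h, with medians of -0.01 and -0.09, where the 8 hydrolase members had 0.19 and 0.22. The direction of the hydrolases depended on which genes were listed. Those furthest from the control were TPP1, a tripeptidyl peptidase, at -0.01 and -0.95, and ARSB, a sulfatase, at -0.22 and -0.71. TPP1 had further probe sets on both sides of 0 at each time, whereas all those of ARSB were lower at 24 h.

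Other autophagosome genes had medians of 0.06 and 0.04 over 24 genes. WDR45, the WIPI family member WIPI4, had signals of 1004.9, 1552.1 and 1487.3, with differences of 0.63 and 0.57. MAP1LC3C, a minor LC3, went from 104.8 signal units to the floor at 12 h, so its -0.77 is a bound. In the other selective receptors the medians were 0.19 and 0.09 over 12 genes. CCPG1, a receptor for the endoplasmic reticulum, was at 0.64 and 0.39, and WDFY3, a large scaffold for aggregates, at -0.29 and -0.64 with probe sets on both sides of 0. The 11 measured other pump subunits had medians of 0.07 and 0.14 and none reached 1.5-fold, nor did any of the 10 other membrane and lipid proteins, whose medians were 0.07 and 0.06. In the list of mTORC1 and TFEB regulators, with medians of 0.09 and 0.11 over 20 genes, SESN2, a sestrin that restrains mTORC1, was the 1 gene past 1.5-fold, at 359.3, 668.6 and 663 signal units.

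**Figure D5:**
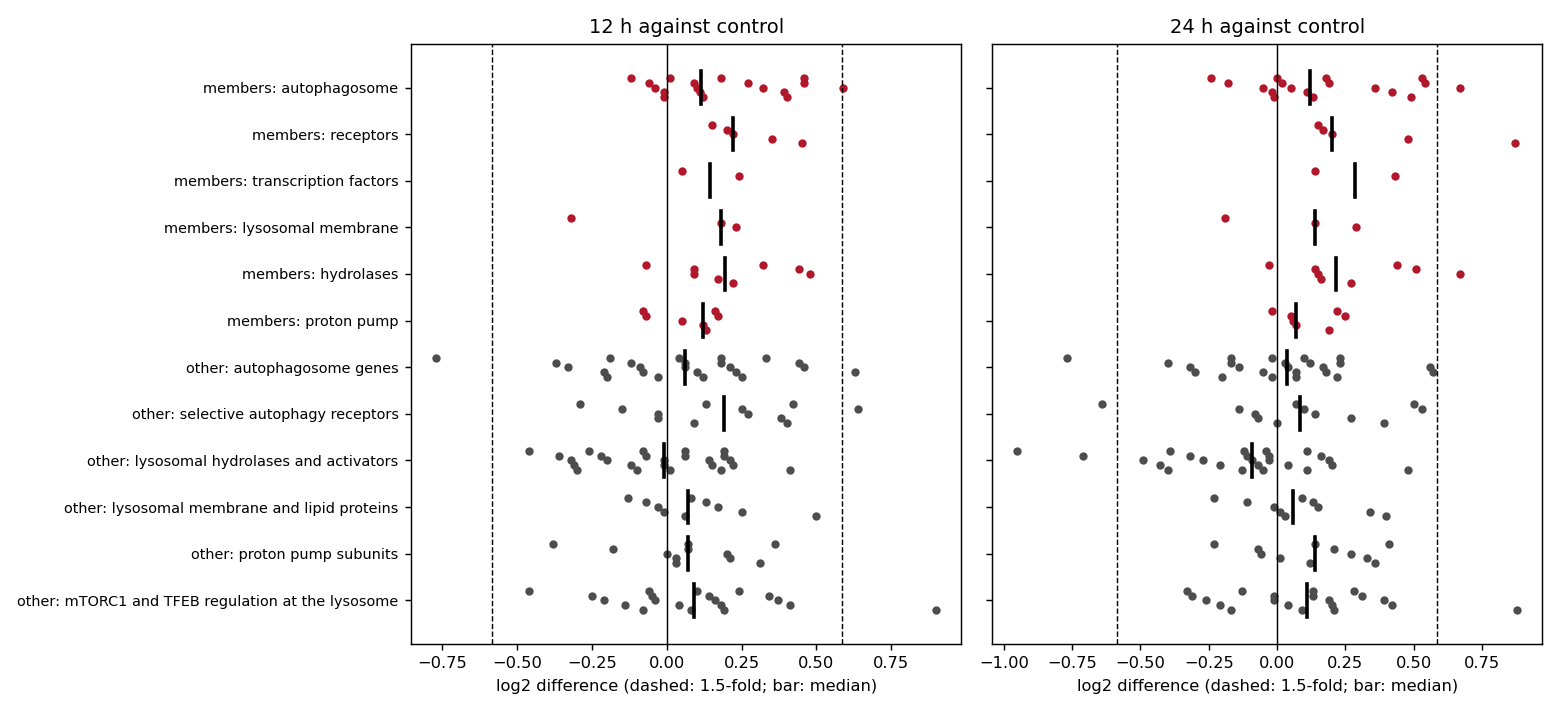
Log2 difference from the control (x axis) at 12 h (left) and 24 h (right) for the members by class (red) and for measured genes of the 6 lists outside the 43 (grey), 1 point per gene, with a black bar at the median and dashed lines at 1.5-fold. Points are spread vertically only to be seen. The medians of member classes lie between 0.07 and 0.28, and the median of the other hydrolases lies at -0.01 and -0.09.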

How the data were processed

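RNA of 3 cultures was hybridised to 3 Affymetrix arrays of 54675 probe sets, 1 per group. The authors deposited signal intensity on a linear scale. It was computed with MAS5, as the submitters' processing notes say, and the settings are not given in the sources used here. On each array the 2% trimmed mean was 500, and the values were used as they stand. The platform annotation gave 1 gene for 41097 probe sets, several for 1801 and none for 11777, and only the first kind was used, with symbols updated through Entrez identifiers. A gene took its brightest probe set. Signals under the 50th percentile were set to it, so a difference that involves the floor is a bound.

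Differences are log2 ratios of 2 arrays. Members were counted at 1.5-fold and 2-fold beside the share of all measured genes past that fold (Python 3.11.15, pandas 2.3.3, limma 3.58.1 for scaling alternatives), and the procedure was tested on simulated data. The members, lists, roles, motifs and fold were chosen with earlier results of these data known. All members are named, with signals for those at 1.5-fold and for the 2 per role furthest from the control on average, and up to 5 genes per further list at 1.5-fold. Readings of single probe sets and the signals of PSAP were added after their values were seen. The 8 alternatives covered scaling, floor and choice of probe set.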

Additional observations from a re-analysis of the deposited data

Results flagged for a closer look

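In the brightest probe sets of 4 members the 12 h and 24 h arrays stood on opposite sides of the control. From 12 h to 24 h the log2 difference was -0.14 for ATG13, -0.12 for BECN1, 0.37 for ATG12 and 0.13 for ATP6V1A. Other probe sets of these genes did not all show this. The second one of ATP6V1A was higher at both times, at 0.43 and 0.49, and that of BECN1 was at 0.02 and 0.39. The 3 probe sets of ATG13 ranged from -0.26 to 0.42 at 12 h and from -0.05 to -0.03 at 24 h, and the other ones of ATG12 were at -0.12 and -0.07 at 24 h. With 1 array per time these differences were not tested.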

How the results depend on the processing

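With median centring, quantile normalization, cyclic loess and the floor at the 25th percentile, the medians of the members and of their role groups moved by less than 0.1 and the counts by less than 1.5 times. The 1 member that was 1.5-fold higher at 12 h, ULK1, became 0 with the floor at the 65th percentile and 0 with no floor and a pseudocount of 1. The same higher floor took ULK1 to 0.49 at 24 h, under 1.5-fold, and left 2 of the 3 members past that fold. With the median over probe sets, the 24 h median of the conjugation genes was -0.05 and that of the receptors 0.32. Restricting to probe sets that do not end in _s_at, _x_at or _a_at left 31 members and moved most. At 12 h 4 members were then 1.5-fold higher and 22 higher by any amount, and 1 was 1.5-fold higher from 12 h to 24 h. Role medians at 12 h and 24 h became 0.26 and 0.26 for initiation and 0.12 and 0.05 for the ATG8 family, which kept 1 gene. For the lysosomal membrane they became -0.20 and -0.08 over 2 genes, LAMP1 being read from another probe set. At 24 h they became -0.10 for conjugation and 0.46 for receptors. Single members changed sign under the probe set alternatives, 5 at each time with the median over probe sets, and 6 and 3 with restricted probe sets. Median centring turned ATG7 and ATG12 at 12 h, both near 0. No member 1.5-fold from the control changed sign under any of the 8 alternatives in which it was read. The only probe set of CTSL ends in _s_at, so the restriction left CTSL out. No paired analysis was possible because each group held 1 array. Leaving out an array leaves no comparison, and precision is limited by 1 array a group and by low signal for genes such as ULK1.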
